A study of Rattus norvegicus with 80 samples.

Results

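Mammary tumors of PS rats were compared with mammary epithelial cells (MECs) of the same line. The comparison took every library labelled PS tumor (9 libraries) and every library labelled PS MECs (3 libraries), which are 12 of the 80 libraries of the series. The series covers tumors of 3 rat lines with mutations in Nf1, named IF, PS and IFPS, and normal tissue of these lines and of wildtype rats. The labels do not spell out the line names, and give no age, no sex and no allele. Tumors and MECs both carry the PS genotype, so the comparison does not set a mutant against a wildtype. Tumors were fresh tissue, homogenised whole and extracted with Trizol. MECs were plated as cultured cells and extracted with a column kit near confluency. According to the series text, normal cell types were obtained by flow sorting. Tumor growth, life in tissue or in culture, the mixture of cells and the extraction therefore change together between the 2 groups and cannot be told apart. Libraries of other groups were used for reference: 6 pads (the whole mammary gland with its fat), 3 fibroblast and 3 adipocyte libraries of PS, 6 pads and 3 libraries each of MECs, fibroblasts and adipocytes of wildtype rats, and 5 IF tumors, 3 IF MECs, 9 IFPS tumors and 3 IFPS MECs.

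Nf1 encodes neurofibromin, a protein that switches Ras off by speeding up the hydrolysis of its bound GTP, and loss of it leaves Ras signalling active for longer. The mammary epithelium consists of an inner luminal layer and an outer basal layer in a pad of fat, fibroblasts, vessels and immune cells. Cultured mammary epithelial cells are taken out of that surrounding tissue and grow as a layer on plastic, so a culture holds the epithelium without its neighbours. A tumor library reads RNA of the tumor cells together with RNA of every other cell in the piece.

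The deposited identifiers are Ensembl rat gene identifiers, and none of the 32883 matched a gene symbol in the reference table used here. Pathway genes, cell type markers and Nf1 itself could thus not be looked up by name. Genes were grouped instead by where they are high in wildtype libraries, none of which is among the 12 compared. A gene was called MEC-enriched, fibroblast-enriched or adipocyte-enriched when it was at least 8-fold higher in that wildtype cell type than in each of the other 2 (adjusted p under 0.05), which gave 620, 153 and 682 genes. A gene was called pad-enriched when it was at least 8-fold higher in wildtype pads than in each of the 3 cell types (600 genes), and culture-shared when it was at least 8-fold higher in both cultured cell types, MECs and fibroblasts, than in both pads and adipocytes (46 genes). The sets describe where genes are high and do not name a cell type: pad-enriched genes are those of any pad cell that the 3 isolated types do not hold at that level. Adipocyte-enriched and pad-enriched genes shared 44 members, and MEC-enriched and pad-enriched genes shared 11.

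The cell labels of PS fitted these sets. MEC-enriched genes held 3.88% ± 0.286 (SD, n = 3) of all counts in PS MECs, 0.0957% ± 0.0234 (SD, n = 3) in PS fibroblasts and 0.076% ± 0.00154 (SD, n = 3) in PS adipocytes. Fibroblast-enriched genes held 4.96% ± 0.0756 (SD, n = 3) in PS fibroblasts against 0.349% ± 0.0132 (SD, n = 3) in PS MECs. Adipocyte-enriched genes held 17.2% ± 1.44 (SD, n = 3) in PS adipocytes against 0.63% ± 0.0946 (SD, n = 3) in PS MECs. Each isolated cell type thus carried its own set at far above the level of the others, and low levels of the other sets were present in each.

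Total counts per library ran from 17344717 to 25475127 in tumors and from 27063591 to 30944799 in MECs, so every MEC library was deeper than every tumor library. The labels do not say whether the libraries of a group came from separate animals or cultures, so p-values measure only the spread between these samples. No 2 libraries of a group agreed within sampling noise: the lowest chi-square divided by its degrees of freedom was 53.4 over 36 pairs of tumors and 14.6 over 3 pairs of MECs. In bulk RNA, fewer cells of a type and less RNA per cell cannot be told apart, which holds for every set below.

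The question of the comparison was which genes differ between tumors and the epithelial cells of the same line. A majority of genes did. Of 15872 genes tested, 9397 differed (59.2%) at an adjusted p under 0.05 (edgeR's quasi-likelihood F-test, adjusted by Benjamini-Hochberg over all genes). In tumors 5139 genes rose (32.4% of those tested) and 4258 fell (26.8%). Called genes had a median absolute log2 fold change of 1.16, and the median signed value over all genes tested was 0.11. Most of the called genes separated the groups completely: 4029 of those that rose were higher in all 9 tumors than in all 3 MECs, and 3867 of those that fell were lower in all 9. Over all genes tested, called or not, ranges did not overlap for 50.9%, with tumors higher for 25.7% and lower for 25.2%.

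Large changes among the genes tested went mostly upward. Called genes beyond 2-fold numbered 5301, with 3267 higher and 2034 lower in tumors. Beyond 4-fold there were 1794 higher and 835 lower, and beyond 16-fold 743 higher and 218 lower. The filter on low counts favours this direction. A gene absent from MECs could pass it with 3 of the 9 tumors, while a gene absent from tumors needed all 3 MECs. A test against a 2-fold minimum (edgeR's glmTreat) called 3002 genes (18.9%), of which 1898 were higher (12%) and 1104 lower (6.96%). Genes that rose were less abundant in culture than genes that fell. The first held 12.5% ± 0.125 (SD, n = 3) of the counts in MECs and 31.3% ± 2.03 (SD, n = 9) in tumors. The second held 54.1% ± 0.102 (SD, n = 3) in MECs and 27.9% ± 2.18 (SD, n = 9) in tumors.

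**Figure D1:**
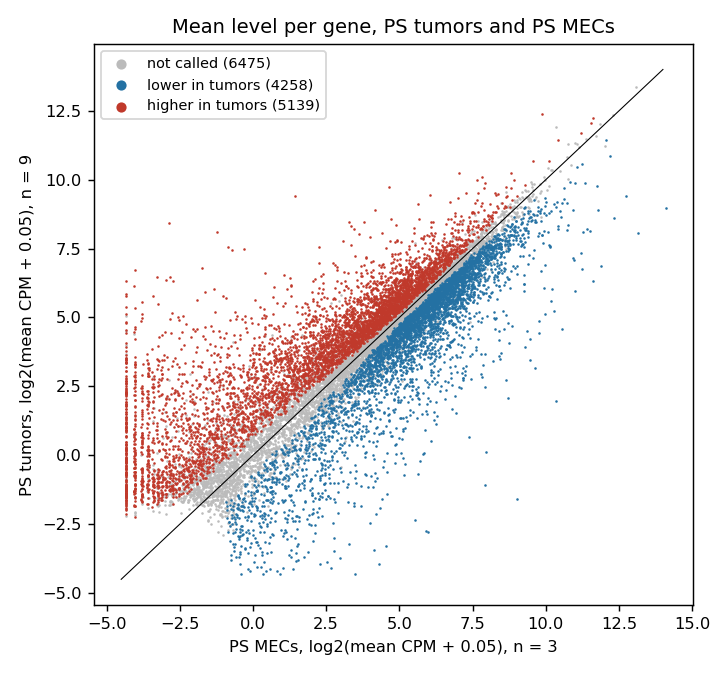
Mean level of each tested gene in the 3 PS MECs (x axis) and the 9 PS tumors (y axis), both as log2(mean CPM + 0.05), where CPM is the count per 1e6 counts of a library after TMM scaling; red points were called higher in tumors (5139), blue points lower (4258) and grey points were not called, and the line marks equal levels. The red cloud runs down to the left edge, where genes had no count in MECs, while most blue points lie at middle and high levels in MECs.

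Tumor libraries spread their counts over more genes. In tumors, 1138 ± 60.8 genes (SD, n = 9) held the first 50% of the counts, against 853 ± 3.21 (SD, n = 3) in MECs, and 13728 ± 155 genes reached 1 CPM against 12976 ± 44.2. Both differences had an exact two-sided permutation p of 0.00909, the smallest that 9 against 3 libraries allow, and 0.0136 after Benjamini-Hochberg adjustment over 3 measures. The share held by the 10 most abundant genes, 6.45% ± 1.32 (SD, n = 9) in tumors and 7.29% ± 0.246 (SD, n = 3) in MECs, did not differ beyond the spread (exact permutation p = 0.309).

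Tumors were also far more varied than the cultures. The median SD of log2 CPM over the tested genes was 0.362 among tumors, 0.117 among MECs and 0.246 among the 6 PS pads. Spearman correlations over genes ran from 0.90 to 0.98 between tumors, from 0.995 to 0.996 between MECs, and from 0.832 to 0.893 between a tumor and a MEC library. The first principal component of the 12 libraries, with 60.0% of the variance, separated the tumors from the MECs. Among the 9 tumors alone the first component held 38.6% of the variance, with replicates 8, 3 and 6 at the same end and replicates 5, 1 and 4 at the other. These ends differed in the adipocyte-enriched share of counts. It was 2.75%, 2.26% and 1.67% in tumors 8, 3 and 6, and 1.38%, 1.32% and 1.28% in tumors 5, 1 and 4, while tumors 9, 2 and 7 between them had 1.17%, 1.42% and 1.81%. The pad-enriched share was 1.98%, 1.60% and 1.04% in tumors 8, 3 and 6, 0.547%, 0.904% and 0.83% in tumors 5, 1 and 4, and 0.737%, 1.04% and 1.42% in tumors 9, 2 and 7. The part of these shares in the spread of the tumors was not tested.

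MEC-enriched genes split 3 ways. Of the 613 tested, 204 rose in tumors (33.3%, against 32.4% of all genes), 140 fell (22.8%, against 26.8% of all) and 269 were not called, with a median log2 fold change of 0.30 beside 0.11 over all genes. The share of counts in the whole set was 4.20% in the lowest tumor, 5.12% in the median one and 6.63% in the highest, with a mean of 5.25% ± 0.764 (SD, n = 9). The 3 MEC libraries had 3.59%, 4.16% and 3.89%. Every tumor thus lay above every MEC library, by a narrow margin at the edge. The set as a whole was called at about the rate of all genes in either direction, and its median level over all 620 members was 3.53 log2 CPM in tumors and 3.39 in MECs. In a fit of the tumors and MECs of all lines, 67 members were called higher in place of 204.

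Wildtype pads divided the set. They hold normal epithelium in place among other cells of the pad. Each MEC-enriched gene was classed by whether it was higher or lower in wildtype pads than in wildtype MECs, or not called. Which cells carried a gene higher in pads was not tested, and 11 of the 56 such genes were also pad-enriched. Of the 56 genes higher in wildtype pads, 49 rose in PS tumors (87.5%, against 32.4% of all genes) and 0 fell, with a median log2 fold change of 2.87. Of the 324 tested genes lower in wildtype pads, 132 fell (40.7%, against 26.8% of all genes) and 29 rose (8.95%), with a median of -0.69. The 233 tested genes with no call between pad and culture leaned upward in tumors, with 126 higher (54.1%) and 8 lower (3.43%) and a median of 1.09. The counts depended on the fit. In the fit of all lines, 35 of the genes higher in pads were called higher in place of 49, and 31 where that fit held the mutated lines only. In the fit of all lines, 30 of the no-call genes were higher in place of 126, and 2 of the genes lower in pads in place of 29. With any of the PS MEC libraries left out, 17 to 19 of the genes lower in pads were called higher.

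The first group held 0.0772% ± 0.0038 (SD, n = 3) of the counts in MECs and 0.731% ± 0.152 (SD, n = 9) in tumors, where the lowest tumor had 0.497% and the highest 0.942%. PS pads had 0.903% ± 0.406 (SD, n = 6). The no-call group held 0.665% ± 0.016 (SD, n = 3) in MECs, 1.85% ± 0.208 (SD, n = 9) in tumors and 0.804% ± 0.204 (SD, n = 6) in PS pads. Its lowest tumor (1.56%) lay above the highest PS pad (1.09%) and above all MECs. The group lower in pads held 3.14% ± 0.272 (SD, n = 3) in MECs and 2.67% ± 0.651 (SD, n = 9) in tumors, with overlapping ranges, and 0.714% ± 0.209 (SD, n = 6) in PS pads.

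Beside whole tissue of the same line, the tumors carried more of the MEC-enriched genes. PS tumors against PS pads called 8222 of 15466 genes (53.2%), 4722 higher and 3500 lower. The pads used moved this count: it was 5457 with the pads of title numbers 10 to 12, of which 48.6% were higher in place of 57.4%, and 6137 with numbers 19 to 21, of which 46.98% were higher. Of 545 tested MEC-enriched genes, 354 were higher in tumors than in pads (65%, against 30.5% of all genes) and 20 were lower, with a median log2 fold change of 1.31. This comparison shares the tumor libraries with that against MECs, so the values stand side by side and no overlap was read from them.

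**Figure D2:**
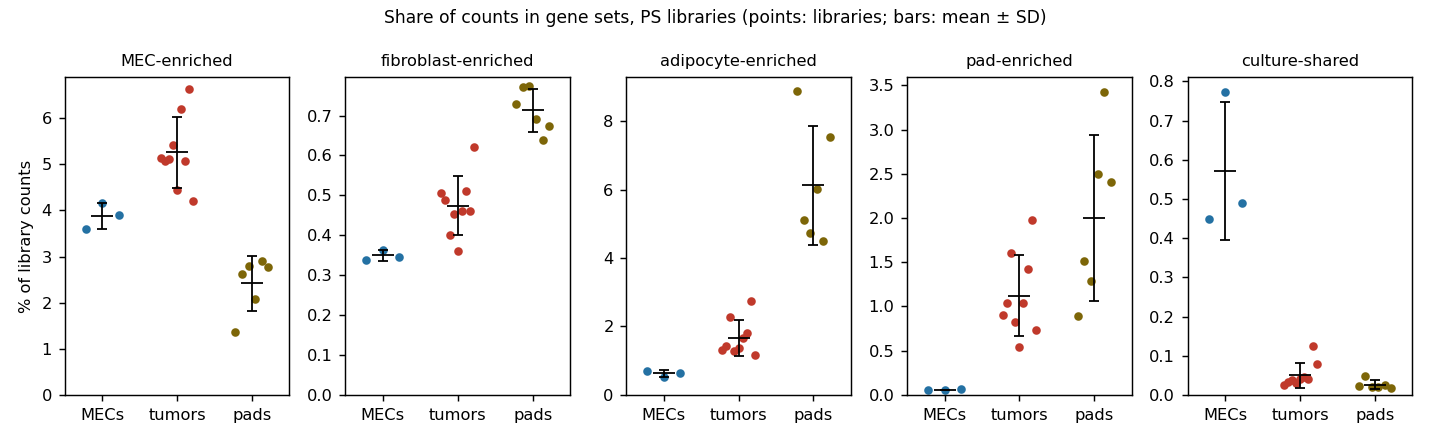
Percent of all counts of a library (y axis, from 0, on a separate scale per panel) in the 5 gene sets, for the 3 PS MECs, 9 PS tumors and 6 PS pads; points are libraries and bars give the mean and SD. MEC-enriched genes are highest in tumors, fibroblast-, adipocyte- and pad-enriched genes lie between MECs and pads in the mean, and culture-shared genes are high in MECs alone among the 3 groups.

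Adipocyte-enriched genes mostly rose. Adipocytes are the fat-storing cells that fill the normal pad. Of 580 tested members, 393 rose in tumors (67.8%, against 32.4% of all genes) and 41 fell (7.07%, against 26.8%). The median log2 fold change was 2.90. The count of fallen members was 68 without tumors 8, 3 and 6, and 67 with limma's voom fit. Members without counts in culture passed the filter only through the tumors, so the tested members lean upward by construction. Over all 682 members, tested or not, the median level was 1.74 log2 CPM in tumors, -1.29 in MECs and 3.51 in PS pads. Their share of counts in tumors was 1.17% at the lowest, 1.42% at the median and 2.75% at the highest, against 0.712%, 0.527% and 0.652% in the MECs. Every tumor was above every MEC library and below every PS pad, the lowest of which had 4.50%. Against PS pads, 332 of 619 tested members were lower in tumors (53.6%, against 22.6% of all genes) and 71 were higher.

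The set itself was mixed, since some of its members were higher still in whole pads than in isolated adipocytes. Of the 164 members higher in wildtype pads than in wildtype adipocytes, 151 were tested, of which 138 rose in tumors (91.4%, against 32.4% of all genes) and 0 fell, with a median log2 fold change of 6.16. Members without counts in culture passed the filter only through the tumors, so these counts lean upward by construction. Over all 164 members the median level was 2.07 log2 CPM in tumors, -2.92 in MECs and 4.34 in PS pads. Their share of counts was 0.0118% ± 0.00099 (SD, n = 3) in MECs, 0.416% ± 0.238 (SD, n = 9) in tumors, 1.27% ± 0.233 (SD, n = 6) in PS pads and 0.205% ± 0.0214 (SD, n = 3) in PS adipocytes. Tumors thus averaged above isolated adipocytes for these members. Of the other 518 members, not called higher in pads than in adipocytes, 429 were tested, with the same lean by construction. Among them 255 rose (59.4%, against 32.4% of all genes) and 41 fell (9.56%, against 26.8%), with a median log2 fold change of 1.92. Over all 518 members the median level was 1.55 log2 CPM in tumors and -0.51 in MECs. They held 1.26% ± 0.312 (SD, n = 9) in tumors, 0.619% ± 0.094 (SD, n = 3) in MECs and 16.96% ± 1.42 (SD, n = 3) in PS adipocytes.

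Pad-enriched genes mostly rose among those that could be tested. Of the 600 members 410 passed the filter on low counts. Of these, 349 rose (85.1%, against 32.4% of all genes) and 1 fell (0.244%, against 26.8%). The median log2 fold change was 5.43. A member absent from culture passes the filter only through the tumors, so the tested members lean upward by construction. Over all 600 members the median level was -0.32 log2 CPM in tumors, -3.26 in MECs and 1.46 in PS pads. The share of counts was 0.547% in the lowest tumor, 1.04% in the median and 1.98% in the highest, against 0.0565%, 0.0529% and 0.0612% in the 3 MECs and 2.003% ± 0.939 (SD, n = 6) in PS pads. Tumors and PS pads overlapped, and no MEC library came near either. Against PS pads, 194 of 467 tested members were lower in tumors (41.5%, against 22.6% of all genes) and 25 were higher (5.35%, against 30.5%).

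Fibroblast-enriched genes moved in both directions. Fibroblasts make the collagen-rich matrix of the pad. Of 123 tested members, 38 rose (30.9%, close to the 32.4% of all genes) and 20 fell (16.3%, against 26.8% of all). The other 65 were not called, and the median log2 fold change was 0.61. Members without counts in culture passed the filter only through the tumors, which leans the tested members upward. Over all 153 members, tested or not, the median level was 0.01 log2 CPM in tumors, -0.04 in MECs and 1.66 in PS pads. Without PS MEC replicate 2 or without replicate 3 the count of risen members was 25. Fallen members numbered 31 with all 12 MEC libraries as the reference and 36 with limma's voom fit. Their share of counts was 0.362% in the lowest tumor, 0.462% in the median and 0.622% in the highest, against 0.338% to 0.364% in MECs, so the ranges overlapped at the edge. Wildtype and PS fibroblasts were themselves cultured, and PS pads held 0.713% ± 0.0546 (SD, n = 6) of this set. Against PS pads, 59 of 122 tested members were lower in tumors (48.4%, against 22.6% of all genes) and 15 were higher (12.3%, against 30.5%).

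Most culture-shared genes fell. Of 39 tested members 0 rose, 33 fell (84.6%, against 26.8% of all genes) and 6 were not called, with a median log2 fold change of -3.50. Members without counts in tumors passed the filter only through the MECs, so the tested members lean downward by construction. Over all 46 members the median level was -0.95 log2 CPM in tumors, 3.25 in MECs and -1.68 in PS pads. All 46 members together held 0.0254% of counts in the lowest tumor, 0.0397% in the median and 0.125% in the highest, against 0.45%, 0.773% and 0.49% in the MECs. PS fibroblasts, also cultured, had 1.09% ± 0.142 (SD, n = 3), and PS pads had 0.0259% ± 0.0117 (SD, n = 6). Tumors and pads were both low beside the cultures of both cell types. Against PS pads, 11 of 24 tested members were higher in tumors (45.8%, against 30.5% of all genes). Another 3 were lower (12.5%, against 22.6%), and the median log2 fold change was 0.68.

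**Figure D3:**
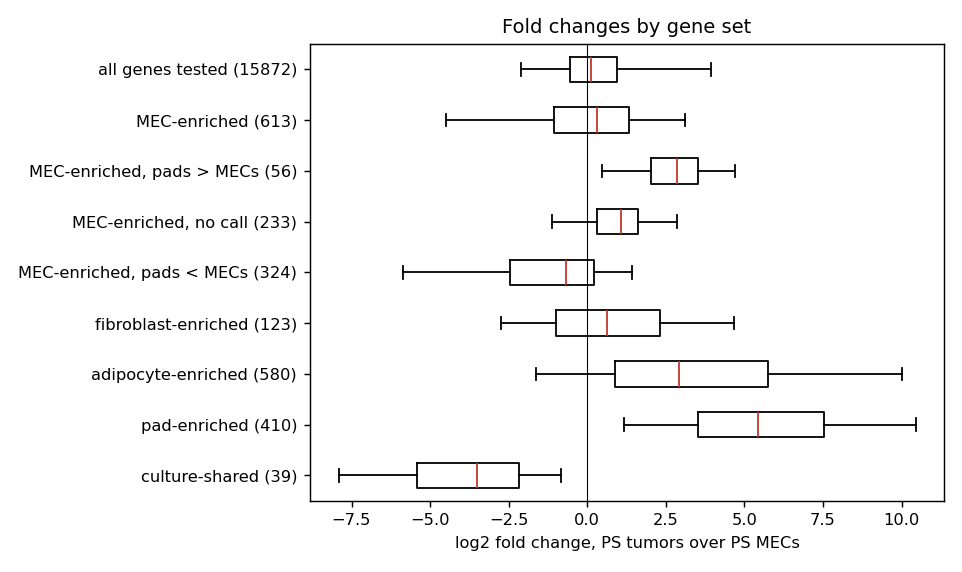
Log2 fold change of PS tumors over PS MECs (x axis) for all tested genes and for the tested members of each set and subset, with the number of genes in brackets; the line in a box is the median, the box spans the 25th to 75th percentiles and the whiskers the 5th to 95th. The median is -3.50 for culture-shared genes, 0.11 for all genes and 5.43 for pad-enriched genes, and the MEC-enriched subsets lie on both sides of 0.

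Much of the difference between tumors and cultures was also present between normal pads and cultures. Wildtype pads against wildtype MECs, which share no library with the PS comparison, called 10732 of 16003 genes (67.1%), 5740 higher (35.9%) and 4992 lower (31.2%). Among 15295 genes tested in both, 3455 were higher in both tissues than in culture, which is 71.2% of the genes higher in tumors and 66.1% of those higher in pads. Another 2988 were lower in both, 70.4% and 60.3% of the respective lists. Genes called in opposite directions numbered 389. Over all 15295 genes the 2 sets of log2 fold changes had a Pearson correlation of 0.80 and a Spearman correlation of 0.70, given as a description because genes are not independent.

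**Figure D4:**
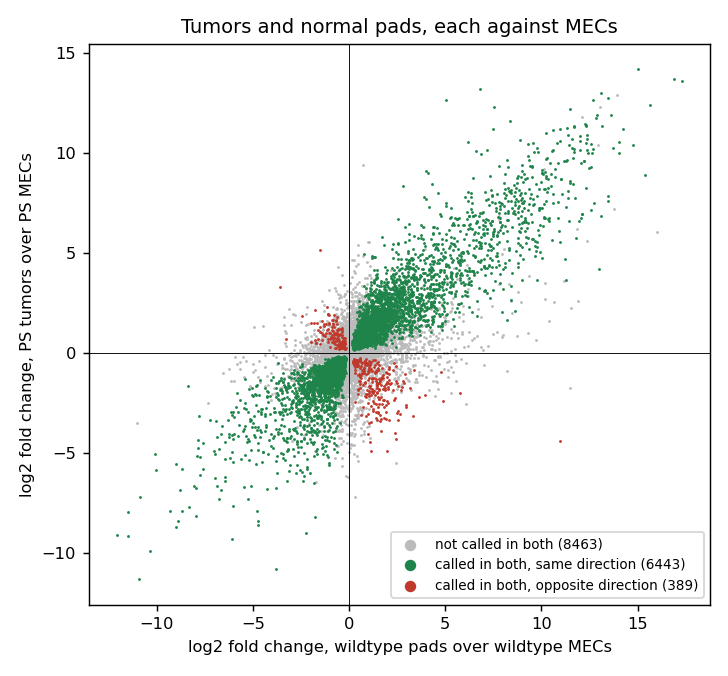
Log2 fold change of wildtype pads over wildtype MECs (x axis) and of PS tumors over PS MECs (y axis) for the 15295 genes tested in both; green points were called in the same direction in both comparisons (6443), red points in opposite directions (389) and grey points were not called in both. Large fold changes fall on the upper right and lower left, and the opposite calls lie mostly within a few log2 units of 0.

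Tumors nevertheless departed from normal pads in many genes. The difference between the 2 contrasts, (PS tumors over PS MECs) over (wildtype pads over wildtype MECs), was tested in a single fit of the 4 groups and was called for 3843 of 16731 genes (23%), 1819 above (10.9%) and 2024 below (12.1%). It compares PS with wildtype as well as tumor with pad. Of the 1256 genes higher in tumors and not called in wildtype pads, 541 had a called difference, with a median log2 fold change of 0.94 in tumors and -0.04 in pads. These genes were chosen by calls on libraries that enter the difference. Its direction and these medians therefore follow largely from that choice. MEC-enriched genes made up 71 of the 541 (13.1%, against 4.01% of all genes tested in both). The set was defined with the same wildtype MEC libraries that enter this difference. That favours MEC-enriched genes among those above and disfavours them among those below, so these counts are not evidence about the set. Of the 1011 genes lower in tumors and not called in pads, 490 had a called difference, with medians of -1.30 and 0.05 under the same choice. MEC-enriched genes were 3 of these (0.612%, against 4.01%), with the same limit.

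Genes called in opposite directions were fewer. Of 144 genes higher in tumors and lower in wildtype pads than in the respective MECs, 34 were MEC-enriched (23.6%, against 4.01% of all genes tested in both) and 0 were fibroblast-, adipocyte- or pad-enriched. Their median log2 fold changes were 0.75 in tumors and -0.65 in pads. All of these sets were defined with the same wildtype MEC libraries that enter the pad comparison. That favours MEC-enriched genes among those lower in pads and disfavours fibroblast- and adipocyte-enriched ones. A pad-enriched gene is higher in wildtype pads by definition, so its 0 was fixed in advance. The counts by set are therefore not evidence about the sets. The count of 144 rested on the few MEC libraries, falling to 71, 79 and 74 without PS MEC replicates 1, 2 and 3 and to 95 without wildtype MEC replicate 2. In the other direction, 245 genes were lower in tumors and higher in pads, with medians of -1.42 and 1.24. Of these 14 were adipocyte-enriched (5.71%, against 3.75% of all genes tested in both), 7 fibroblast-enriched (2.86%, against 0.771%) and 1 MEC-enriched (0.408%, against 4.01%). Here the shared wildtype MEC libraries favour adipocyte- and fibroblast-enriched genes and disfavour MEC-enriched ones, so these shares are not evidence about the sets either. With the wildtype pads of title numbers 13 to 15 alone, 375 genes were lower in tumors and higher in pads.

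Some genes were off in culture and on in every tumor. A gene was called off below 0.1 CPM in every library of a group and on at 1 CPM or more in every library. On that rule 106 of the 32883 identifiers were on in all 9 tumors and off in all 3 MECs, with a median level of 5.59 CPM in tumors and a highest of 90.8. Just inside the rule the lowest tumor library had 1.03 CPM and just outside 0.988, and 54 further genes lay between 0.5 and 1. Of the 106, 88 were on in every PS pad, 58 in every PS adipocyte library and 16 in every PS fibroblast library. In other MECs 99 were off in every wildtype library, 91 in every IF and 90 in every IFPS library. In other tumors 87 were on in all 5 IF and 84 in all 9 IFPS libraries. Of the 106, 1 was off in every PS pad, fibroblast and adipocyte library, and for 4 all 9 tumors lay above every normal PS library. The shares of all genes on or off in these groups are not given here, so these counts have no background beside them.

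The reverse held for fewer genes, on a rule that is not symmetric. Here a gene had to be off in 9 varied tumors, and above it had to be off in only 3 closely alike MECs. The 2 counts are therefore not on equal terms. In total 11 genes were on in all 3 MECs and off in all 9 tumors, with a median level of 2.62 CPM in MECs and a highest of 18.3. Of these, 7 were on in every MEC library of the other 3 lines, 7 were off in every PS pad and 2 were on in every PS fibroblast library. In the other tumors 9 were off in all 5 IF libraries and 6 in all 9 IFPS libraries.

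The extremes of both directions can be given by identifier. They were the genes with the largest fold change among those with a called difference, no overlap between groups and a mean of at least 10 CPM in the higher group, and their Ensembl identifiers are not paired with names here. ENSRNOG00000012804 had no count in any of the 3 PS MECs. In tumors it ran from 36.7 CPM to 239 CPM with a median of 63.5 (mean 80.9 ± 62.5, SD, n = 9). It was detected in every tumor and in no MEC library of PS, IF, IFPS or wildtype. The mean was at least 2437-fold higher in tumors, taking 3 counts over the 3 MEC libraries together as the floor (edgeR adjusted p = 2.28e-05). PS pads had 119 to 173 CPM with a median of 122, PS adipocytes 11.4 to 18.8 CPM and PS fibroblasts 1.61 to 6.69 CPM. Tumors and pads did not differ in the test (log2 fold change -0.66 ± 0.35, SE, edgeR adjusted p = 0.123).

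ENSRNOG00000029886 was likewise at 0 in all MECs of every line and in all PS and wildtype fibroblasts. In PS tumors it ran from 12.95 to 205 CPM with a median of 45.8 (mean 57.8 ± 58.5, SD, n = 9), at least 1742-fold above the same floor (edgeR adjusted p = 0.000185). PS pads were higher still, at 180 to 496 CPM with a median of 318, and the tumors fell by 2.45 ± 0.49 (SE) on the log2 scale against them (edgeR adjusted p = 0.000768). PS adipocytes had 7.22 to 20.1 CPM. Both identifiers were thus present in tissue and in adipocyte libraries, and without a count in epithelial cultures. Tumor 8 had the highest level of both among the tumors, and also the largest adipocyte-enriched and pad-enriched shares of counts. For both identifiers every PS pad lay above every PS adipocyte library.

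ENSRNOG00000017686 was one of the identifiers with the largest fold change downward. The MECs had 436, 458 and 655 CPM (mean 517 ± 120, SD, n = 3). The tumors ran from 0.0601 to 0.722 CPM with a median of 0.202 (mean 0.282 ± 0.248, SD, n = 9), from 72 counts in all 9 libraries together. The groups were separated by about 3 orders of magnitude, a log2 fold change of -10.78 ± 0.46 (SE, edgeR adjusted p = 2.68e-08). PS pads lay between, at 13.9 to 30.5 CPM with a median of 23.7, so the tumors were below the normal tissue too, by a log2 fold change of -6.31 ± 0.47 (SE). PS fibroblasts had 1.65 to 2.10 CPM and PS adipocytes 0.26 to 0.789 CPM. In the other lines, the range was 0.235 to 1.23 CPM in IF tumors and 295 to 492 CPM in IF MECs. IFPS tumors had 0.0309 to 7.05 CPM against 410 to 456 CPM in IFPS MECs.

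ENSRNOG00000033173 had no count in any of the 9 tumors. The MECs had 9.47, 9.53 and 14.6 CPM (mean 11.2 ± 2.93, SD, n = 3), at least 930-fold above a floor of 3 counts over the 9 tumors (edgeR adjusted p = 6.24e-05). It was also at 0 in all 6 PS pads, all 6 wildtype pads and all 5 IF tumors, and reached 1 count in the IFPS tumors. MECs of the other lines had 9.42 to 13.8 CPM in IF, 10.4 to 11.3 CPM in IFPS and 6.91 to 9.55 CPM in wildtype. It was thus a gene of the epithelial cultures of all 4 lines and of none of these tissues at this depth. PS fibroblasts, the other culture, had at most 1 count and PS adipocytes at most 2, while wildtype fibroblasts had up to 4 and wildtype adipocytes up to 11.

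**Figure D5:**
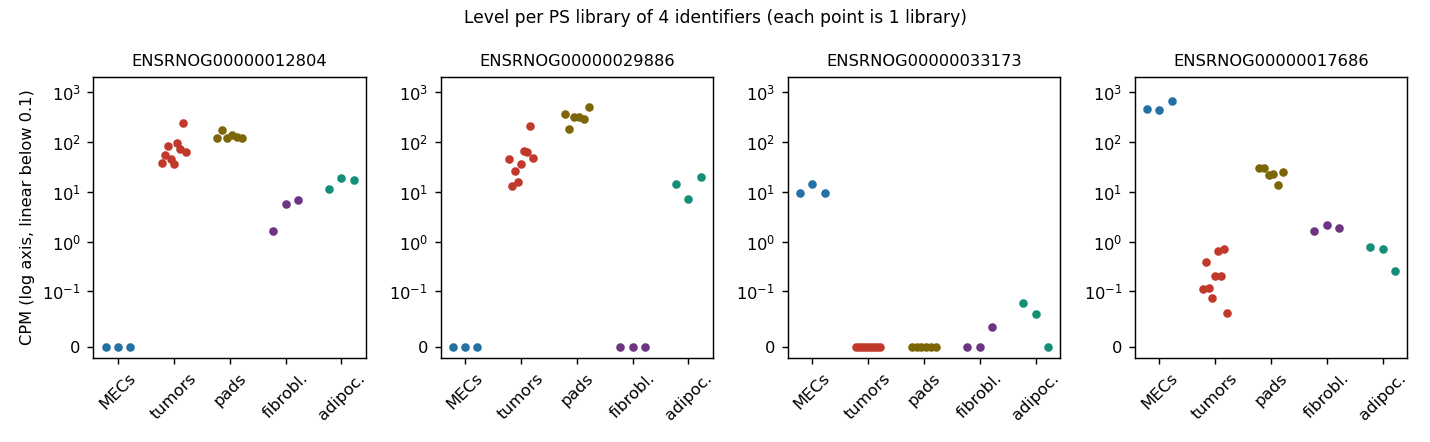
CPM (y axis, logarithmic above 0.1 and linear below) of 4 identifiers in each PS library, with 1 point per library for MECs (3), tumors (9), pads (6), fibroblasts (3) and adipocytes (3). The 2 identifiers on the left are at 0 in MECs and between 12.95 and 239 CPM in tumors, and the 2 on the right are at 9.47 to 655 CPM in MECs and below 1 CPM in every tumor.

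The last comparison asked whether the difference between tumors and MECs depended on the line. In a fit of the tumors and MECs of PS, IF and IFPS (16865 genes), PS gave 7741 calls (45.9%), with 4040 higher (24%) and 3701 lower (21.9%). IF gave 7222 (42.8%), with 23.6% of genes higher and 19.2% lower, and IFPS 7459 (44.2%), with 25.7% higher and 18.5% lower. No gene was called for a difference of the PS contrast from the mean of the other 2, nor from IF or IFPS alone (0 of 16865, 0%, each, edgeR's quasi-likelihood F-test). At an unadjusted p under 0.05 there were 665, 920 and 661 genes (3.94%, 5.46% and 3.92% of those tested), and DESeq2 called 3, 49 and 2. Counts were simulated for these 6 groups with 200 genes changed and a single spread per gene for all groups. On them the test found 19% of genes changed by 2-fold and 53% of those changed by 4-fold. At that setting a line difference of 2-fold would mostly be missed. These counts do not show that the lines act alike.

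Set by set, the 3 lines gave similar medians for some sets and wider ones for others. The median log2 fold change of MEC-enriched genes was 0.26 in PS, -0.07 in IF and -0.18 in IFPS, that of adipocyte-enriched genes 2.76, 2.84 and 3.96, and that of culture-shared genes -3.63, -4.37 and -3.18. Fibroblast-enriched genes had 0.59, 0.99 and 1.71. The share of counts in MEC-enriched genes had the narrowest range in PS tumors, at 4.20% to 6.63%, where IF tumors had 6.23% to 10.7% and IFPS tumors 0.217% to 5.61%. The MECs of the 3 lines were close to each other on this share, at 3.88% ± 0.286, 3.98% ± 0.436 and 3.36% ± 0.325 (SD, n = 3 each). On the share of counts in pad-enriched genes IF tumors stood apart with 5.02% to 22.6%, where PS tumors had 0.547% to 1.98% and IFPS tumors 0.498% to 3.63%. Over the members of that set they did not stand apart. The median level was -0.32 log2 CPM in PS tumors, -0.27 in IF tumors and -0.15 in IFPS tumors. Median log2 fold changes over MECs were 4.95 in PS, 5.12 in IF and 5.31 in IFPS.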

How the data were processed

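RNA sequencing of Rattus norvegicus was deposited as raw counts, whole-number totals of reads for 32883 Ensembl identifiers in 80 columns. Columns were assigned to libraries through the titles. The submitters' processing notes name Trim Galore, STAR 2.5.2b and Rnor_6.0 without their roles. The counting tool, annotation and use of strand are not given in the sources used here, so overlapping, antisense and near-identical genes cannot be separated with certainty. The deposited counts were analysed unchanged and hold no gene-free total.

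Comparisons used edgeR 4.0.16 in R 4.3.3 (filterByExpr, TMM, glmQLFit, glmQLFTest and glmTreat), with Benjamini-Hochberg adjustment over all genes tested and a threshold of 0.05. Tumors against MECs, tumors against pads and wildtype pads against MECs were each fitted on their 2 groups. Levels are CPM with TMM factors over all 80 libraries, and log2 CPM adds a prior count of 2. Alternatives were RLE size factors, no filter, DESeq2 1.42.0, limma 3.58.1 (voom), thinned counts, other reference groups and libraries left out in turn. On simulated counts for tumors against MECs (15632 genes, 200 changed), 44% of 2-fold and 70% of 4-fold changes were recovered, 4.20% of calls were false and 0 had the wrong sign. The simulation changed few genes and gave both groups a single spread per gene. In the data 59.2% of genes were called, and the median SD of log2 CPM was 0.362 among tumors and 0.117 among MECs. The simulated shares therefore do not measure the recovery or the false calls of this comparison.

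The comparison and the sets were chosen with earlier results of these data known, and the pad-enriched and culture-shared sets, the subsets and the wildtype pad comparison were added after the files were read. The 31 gene lists, with 483 genes, the cell type markers, Nf1 and the promoter motifs that were planned need symbols and were not analysed here, since 0 identifiers matched the 47357 records of the reference table. For the same reason the rule for named genes (largest fold change among called genes with no overlap and at least 10 CPM) was limited to 2 identifiers per direction.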

Additional observations from a re-analysis of the deposited data

Results flagged for a closer look

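Dixon's test was run on 36 groups of values in PS tumors and PS pads. They were library measures such as total counts, shares of the gene sets and levels of the named identifiers. In 4 groups of values, a library's gap to its nearest neighbour was large for the group's range. Chance alone gives about 1 in 20 such groups. PS tumor replicate 8 had 239 CPM of ENSRNOG00000012804, where the next tumor had 96.0 CPM and the median was 63.5. The same tumor had 205 CPM of ENSRNOG00000029886, where the next had 66.7 and the median was 45.8. PS pad replicate 2 had 0.0492% of its counts in culture-shared genes, where the next pad had 0.0257% and the median was 0.0211%. It also had 173 CPM of ENSRNOG00000012804, where the next pad had 135 and the median was 122.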

How the results depend on the processing

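Of the recomputed values, 649 stayed within 1.5 times of the reported count or kept their direction and side of the threshold, 28 moved further and 0 reversed. Genes called between tumors and MECs numbered 7727 to 9689 with 1 library left out and 8041 to 11849 under the other settings, and those past 2-fold 2240 to 3178 with 1 library left out. A 4-fold minimum left 1037 genes in place of 3002. In the fit of all tumors and MECs, 67 MEC-enriched genes were higher in place of 204. Fibroblast-enriched genes lower in tumors numbered 31 with all 12 MEC libraries as reference and 36 with voom, in place of 20, and those higher 25 to 38 with 1 library left out. Adipocyte-enriched genes lower in tumors numbered 67 with voom and 68 without tumors 8, 3 and 6, in place of 41. DESeq2 called 3 genes for line dependence of PS, 49 against IF and 2 against IFPS, in place of 0. Tumors against the pads of title numbers 10 to 12 gave 5457 in place of 8222. Genes higher in tumors and lower in wildtype pads numbered 71 to 169 with 1 library left out, in place of 144, and those lower in tumors and higher in pads 375 with pads 13 to 15, in place of 245. A 4-fold minimum of the sets gave 310 fibroblast-enriched and 1052 adipocyte-enriched genes, and a 16-fold minimum 395 MEC-enriched and 72 fibroblast-enriched genes. The causes were not tested. No paired analysis was possible for tumors and MECs because tumor titles carry no number shared with MEC titles. Wildtype titles share numbers 1 to 3, which the labels do not tie to animals; a replicate block on them gave 11444 genes between pads 1 to 3 and MECs, against 11745 without it, and sets of 620, 152 and 686 genes. Correlations of same-numbered deviations were -0.03, 0.10 and 0.14 for pads with MECs and 0.19, 0.20 and 0.24 for MECs with fibroblasts, and the block changed no call of a comparison by over 1.5 times. With 3 MEC libraries, each MEC library left out removed more calls than any tumor did. In the simulation, which gave both groups a single spread per gene, 2-fold changes were recovered at 44%.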
